A study of Mus musculus with 18 samples.

Results

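The insulin-like growth factor (IGF) genes of the infarcting mouse heart are described here: the ligands Igf1 and Igf2, the receptor Igf1r, and the binding proteins Igfbp2, Igfbp3, Igfbp4, Igfbp5, Igfbp6 and Igfbp7. The 9 genes were taken by symbol from a table of 24419 symbols, and all 9 were found. They were listed as a gene family, with earlier results of these data known. Libraries of polyA RNA came from 18 C57BL/6 mice, 8 weeks old and male by the study's methods, and each holds left ventricle. Acute myocardial infarction (AMI) was made by tying off the proximal left anterior descending coronary artery under pentobarbital, and the infarcted tissue was taken after 10 min, 1 h, 6 h, 24 h or 72 h, from 3 mice each. The other 3 mice are the sham group, which the labels call Mcon. All mice were of the same strain, the labels name no genetic change, and each library is 1 mouse. Every level is an FPKM, the fragments per kilobase of transcript scaled to the mapped fragments of the library, so that levels of different genes can be compared. A change between groups is given as a log2 change, the difference of the group means of log2(FPKM + 1), with its SE.

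IGF1 and IGF2 are secreted peptides that act through the receptor tyrosine kinase IGF1R, which passes the signal to insulin receptor substrates, PI3 kinase and AKT. In the extracellular space most IGF is held by binding proteins, which prolong its life and restrict its access to the receptor, and proteases such as pregnancy-associated plasma protein A (encoded by Pappa) cut some of them and release the ligand. IGF1 comes largely from the liver under growth hormone, but also from cells within tissues, macrophages among them, and in the heart the pathway is known for cardiomyocyte survival and growth. IGFBP7 is related to the other binding proteins but holds IGFs only weakly.

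The genes lie at separate loci of the mm10 genome apart from one pair. Igfbp2 (chr1:72824503-72852474, plus strand) and Igfbp5 (chr1:72857932-72874884, minus strand) are neighbours, with 5457 bases between them. Igf1 is at chr10:87858265-87937042, Igf2 at chr7:142650766-142666816, Igf1r at chr7:67952827-68233668, Igfbp3 at chr11:7206086-7213923, Igfbp4 at chr11:99041244-99054392, Igfbp6 at chr15:102144362-102149511 and Igfbp7 at chr5:77349240-77408041. In GENCODE, Igf1, Igf2 and Igfbp7 overlap other genes, and the others overlap none. Igf1 and Igf2 each have an antisense partner, and Igfbp7 overlaps part of Polr2b, which encodes an RNA polymerase II subunit, on the opposite strand. The strand setting of the counting is not given in the sources used here, so reads of such partners could not be told apart. Polr2b itself averaged 56.1 FPKM in sham and 61.8 FPKM at 72 h (log2 change 0.14 ± 0.09 SE, adjusted p = 0.193).

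The promoter sequences of 4 binding proteins are shown because these genes gave clear contrasts: Igfbp4 and Igfbp7 were highest at 72 h, and Igfbp3 and Igfbp6 moved in opposite directions at 24 h. Each run is the 250 bases before the RefSeq start on GRCm38.p6 (mm10), written 5′ to 3′ on the gene's own strand, and overlaps no GENCODE exon. The windows are chr11:99040994-99041243 (plus) for Igfbp4, chr5:77408046-77408295 (minus) for Igfbp7, chr11:7213924-7214173 (minus) for Igfbp3 and chr15:102143936-102144185 (plus) for Igfbp6. Capitals mark matches, on either strand, to the TATA box (TATAAA), the CCAAT box (CCAAT), the GC box (GGGCGG) or the E-box CACGTG. They also mark the hypoxia response core (ACGTG), the AP-1 site (TGANTCA) and the STAT site (TTCNNNGAA).
Igfbp4: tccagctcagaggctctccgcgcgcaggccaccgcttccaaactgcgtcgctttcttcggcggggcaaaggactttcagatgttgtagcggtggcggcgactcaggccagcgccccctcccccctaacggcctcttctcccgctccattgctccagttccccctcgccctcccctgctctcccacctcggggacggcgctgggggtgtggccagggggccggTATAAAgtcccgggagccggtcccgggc
Igfbp7: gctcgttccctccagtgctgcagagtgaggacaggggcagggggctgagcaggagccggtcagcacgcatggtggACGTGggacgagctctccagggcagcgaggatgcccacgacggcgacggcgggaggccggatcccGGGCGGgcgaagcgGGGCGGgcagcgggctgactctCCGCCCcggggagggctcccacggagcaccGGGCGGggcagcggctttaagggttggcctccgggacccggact
Igfbp3: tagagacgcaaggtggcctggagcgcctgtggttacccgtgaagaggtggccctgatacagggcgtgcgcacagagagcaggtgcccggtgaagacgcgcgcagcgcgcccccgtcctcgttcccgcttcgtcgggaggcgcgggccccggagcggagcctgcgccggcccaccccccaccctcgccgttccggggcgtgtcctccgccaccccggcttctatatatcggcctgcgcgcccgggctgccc
Igfbp6: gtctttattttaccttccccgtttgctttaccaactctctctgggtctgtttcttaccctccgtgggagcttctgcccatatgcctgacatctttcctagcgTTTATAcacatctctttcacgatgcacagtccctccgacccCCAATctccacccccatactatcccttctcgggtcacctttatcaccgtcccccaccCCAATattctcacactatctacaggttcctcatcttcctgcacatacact
Igfbp4 held 1 TATA box close to its start, Igfbp7 held 4 GC boxes and 1 ACGTG, Igfbp6 held 1 TATA box on the reverse strand and 2 CCAAT boxes, and Igfbp3 held none of the 7 motifs. Of 32851 windows of this length over all genes, 12.4% held a TATA box, 32.7% a GC box, 33.8% a CCAAT box and 16.6% the ACGTG core. The remaining motifs were found in 6.02% (CACGTG), 6.75% (AP-1) and 7.02% (STAT) of all windows, and in none of these 4. The Igfbp6 window had a GC content of 49.6%, against 69.2% for Igfbp4, 73.2% for Igfbp3 and 74.0% for Igfbp7. A match is a stretch of letters and does not show that a factor binds.

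**Figure D1:**
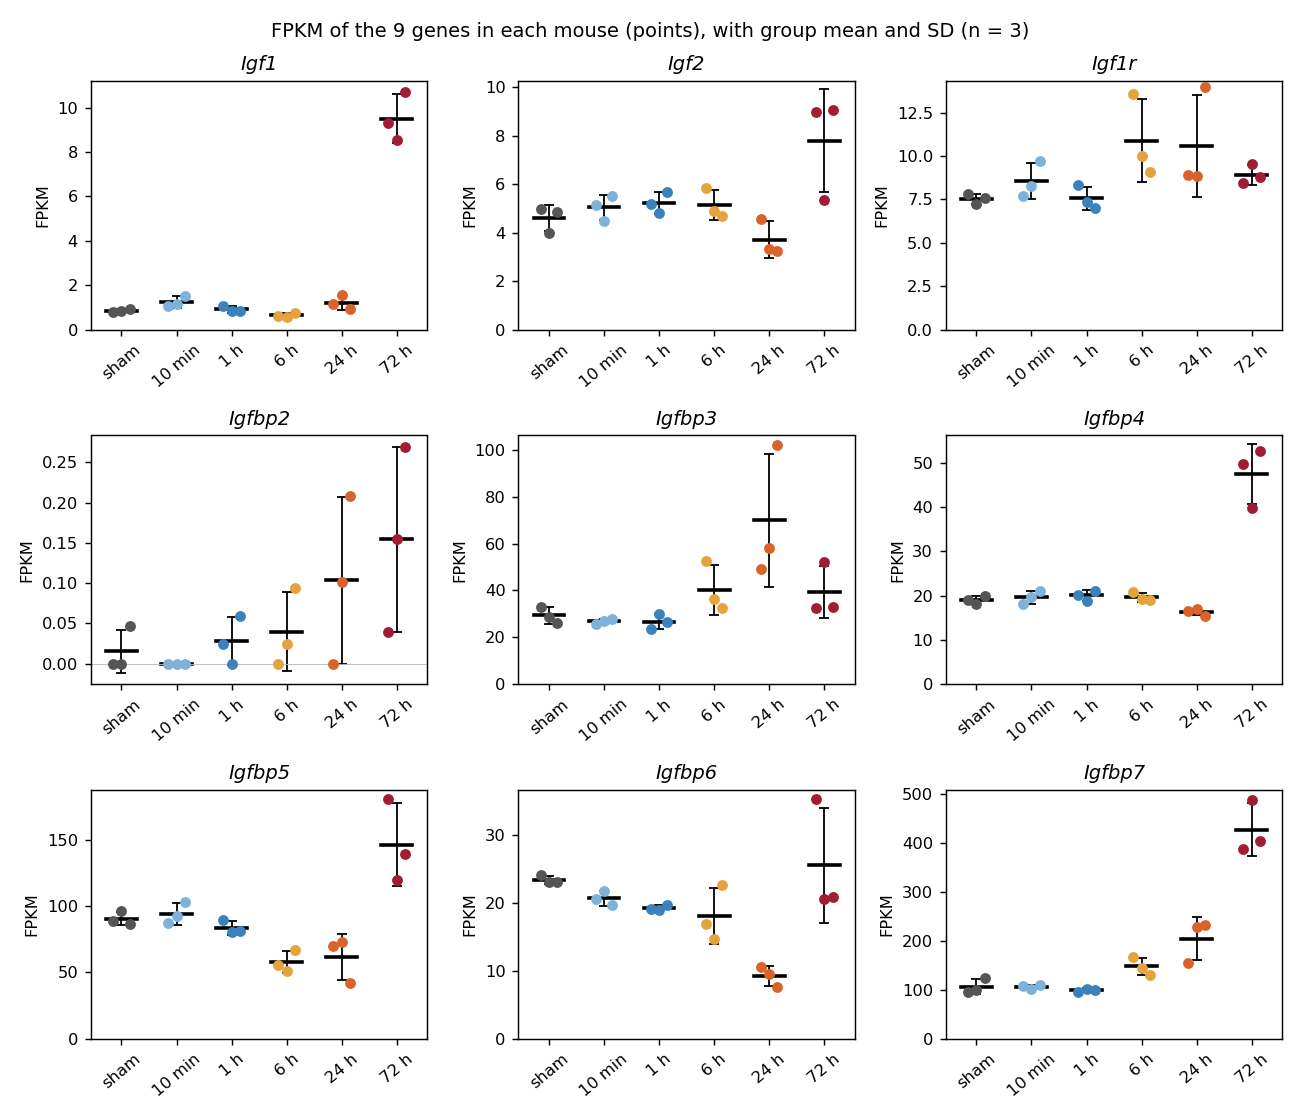
FPKM (y axis, its own scale in each panel) of the 9 genes by group (x axis), with 1 point per mouse and bars for the group mean and SD (n = 3). Igf1, Igfbp4 and Igfbp7 stand above every earlier mouse at 72 h, the mean of Igfbp3 is highest and that of Igfbp6 lowest at 24 h, and Igfbp2 does not pass 0.269 FPKM in any mouse.

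In the sham heart the IGF transcripts were dominated by binding proteins. Igfbp7 (105 ± 15.1 FPKM, SD, n = 3) and Igfbp5 (90.3 ± 5.07) were the most abundant, followed by Igfbp3 (29.3 ± 3.55), Igfbp6 (23.4 ± 0.576) and Igfbp4 (18.99 ± 0.971). Igf1r (7.53 ± 0.301 FPKM) and Igf2 (4.60 ± 0.538 FPKM) were lower, and Igf1 was below 1 FPKM in all 3 sham mice (0.859 ± 0.0793). Igfbp2 was listed at 0 in 2 of the 3 sham mice and in all 3 mice at 10 min, and reached at most 0.269 FPKM in any mouse, at 72 h. It therefore failed the filter (FPKM of at least 1 in at least 1 of the 18 mice) and was not tested. The other 8 genes passed.

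The libraries differed in what other cells and depth they carried. The RNA was that of ventricle, with 8 cardiomyocyte markers summing to 43702 to 46294 FPKM in sham and none of them at 0, and this sum was 16581 to 20519 FPKM at 72 h. Relative depth, read from the step between low FPKM values, ran from 0.813 to 1.319 times the first sham mouse, with the 72 h mice among the highest. Summed neutrophil markers were 2.32 to 4.99 FPKM in sham, but 997 FPKM in mouse 1 at 6 h and 965 FPKM in mouse 3 at 24 h, against 42.6 to 375 FPKM in the other mice of these groups. In bulk tissue, a change in the number of cells that make a transcript cannot be told apart from a change in RNA per cell. Over all genes tested, the median of the log2 change against sham also shifted, to 0.13 at 24 h and 0.29 at 72 h, while median-of-ratios scaling left 0.02 and 0.04.

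The IGF genes were called from 6 h on and not before. A gene is called here where limma's adjusted p, over all genes tested, was under 0.05. At 10 min none of the 8 tested genes was called, where 0.248% of all genes were called higher and 0.0978% lower. At 1 h none was called either, against 0.669% higher and 0.0526% lower over all genes. By an unadjusted p under 0.05, 2 genes passed at 10 min (Igf1 and Igfbp6) and 1 passed at 1 h (Igfbp6), where 14.7% and 12.6% of all genes did. At 6 h Igf1r and Igfbp7 rose and Igfbp5 fell, where 11.6% of all genes were called higher and 16.8% lower. At 24 h Igfbp3 and Igfbp7 rose and Igfbp6 fell, where 26.2% were called higher and 11.4% lower. At 72 h Igf1, Igf2, Igf1r, Igfbp4, Igfbp5 and Igfbp7 rose and none fell, where 53.1% were called higher and 24.2% lower. With 53.1% of all genes higher at 72 h, a count of 6 of 8 is not far from that background. The median log2 change of the 8 genes was 0.65 at 72 h, beside 0.29 for all genes.

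Group ranges gave a second view, in which a gene counts where all mice of a time lay on one side of all mice of the other group. At 10 min 1 of the 8 genes lay wholly above sham and 1 wholly below, where 12.2% and 8.15% of all genes tested did. At 1 h none lay above and 1 lay below (7.41% and 10.9% of all genes), and at 6 h 2 lay above and 3 below (18.6% and 30.2%). At 24 h 3 lay above and 3 below (39.3% and 18.9%). At 72 h 6 lay above and none below (55.1% and 25.4%). Between successive times, 1 gene lay above and 3 lay below at 24 h against 6 h (36.2% and 7% of all genes), and 6 lay above and none below at 72 h against 24 h (37.3% and 19.1%).

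**Figure D2:**
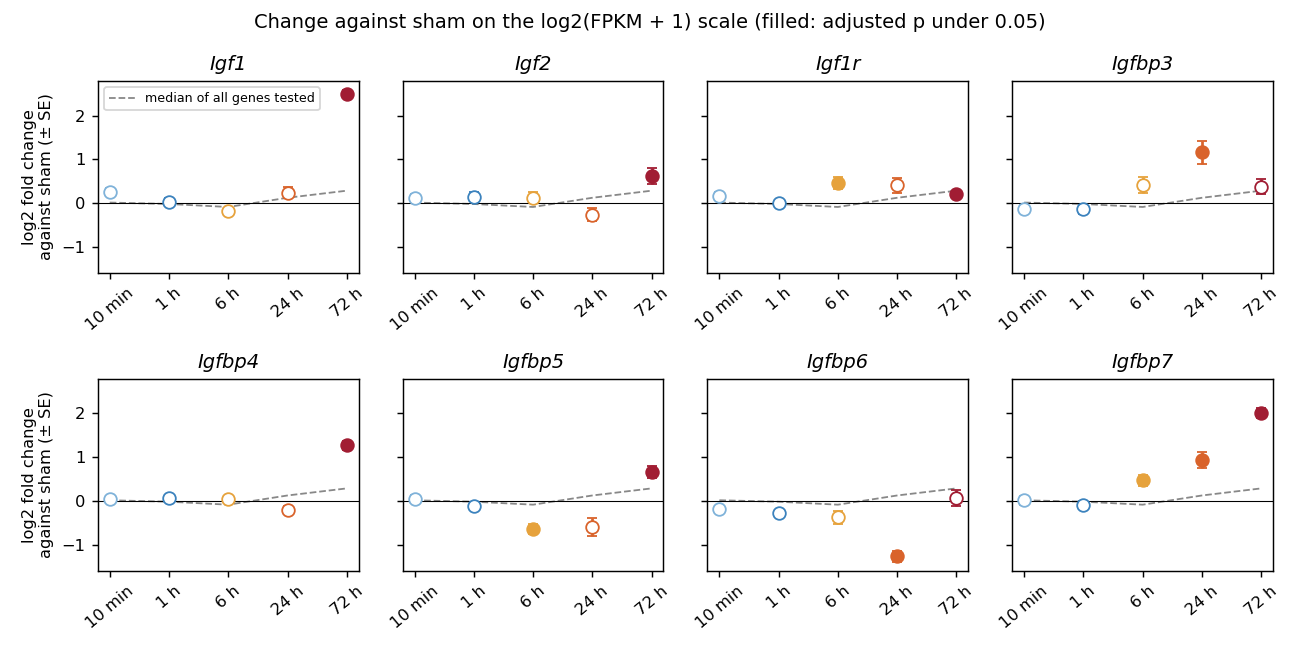
Log2 fold change against sham on the log2(FPKM + 1) scale (y axis) at each time after ligation (x axis) for the 8 tested genes, with bars for the SE of the fit and filled points for an adjusted p under 0.05. The dashed line is the median of all genes tested, which reaches 0.29 at 72 h. Igf1 (2.49) and Igfbp7 (2.01) lie farthest above it at 72 h, and Igfbp6 (-1.26) lies farthest below it at 24 h.

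Igf1 changed more than any other of these genes. Its FPKM in mice 1 to 3 was 0.798, 0.831 and 0.949 in sham, 0.605, 0.573 and 0.737 at 6 h, 1.17, 1.54 and 0.912 at 24 h, and then 9.28, 8.53 and 10.7 at 72 h. The 72 h mice all lay far above every other mouse, whereas the 24 h mice overlapped sham. At 10 min the values were 1.06, 1.14 and 1.53 FPKM, above all sham mice, and 1 h (1.07, 0.832 and 0.821 FPKM) overlapped sham again. The rise at 10 min was not called (log2 change 0.26 ± 0.10 SE, adjusted p = 0.272). At 6 h all 3 mice lay below sham, again without a call (-0.18 ± 0.09 SE for the log2 change, adjusted p = 0.145). The Igf1 level after 72 h was on average 11.1-fold that of sham, with a log2 change of 2.49 ± 0.10 SE (adjusted p = 9.76e-08), which understates the ratio because 1 was added to such low values. By size of this change Igf1 ranked 545 of 13329 genes.

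The rise of Igf1 fell between 24 h and 72 h. The test of 72 h against 24 h gave a log2 change of 2.25 ± 0.14 SE (adjusted p = 5.2e-05), and 29.7% of all genes were called higher and 13.5% lower in this comparison. Macrophage and fibroblast markers moved over the same interval. The 8 macrophage markers summed to 318 to 375 FPKM in sham, 669 to 800 FPKM at 24 h and 4623 to 6151 FPKM at 72 h, where 7 of 8 were called higher and none was at 0. The 8 fibroblast markers, collagens and Postn among them, summed to 259 to 292 FPKM in sham, 320 to 448 FPKM at 24 h and 3823 to 4942 FPKM at 72 h. At 72 h 7 of 8 were called higher than at 24 h, and 8 of 8 higher than in sham, where 53.1% of all genes were. Their part in the Igf1 result was not tested.

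Igf2, the ligand best known from fetal growth, changed less. In mice 1 to 3 its FPKM was 4.97, 3.98 and 4.86 in sham, 4.58, 3.32 and 3.23 at 24 h, and then 8.98, 5.37 and 9.07 at 72 h. All 72 h mice were above the sham mice, but mouse 2 was close to them, and the 24 h mice overlapped sham. The log2 change was 0.63 ± 0.18 SE at 72 h (adjusted p = 0.0101), with a mean FPKM 1.70-fold that of sham. This call was lost after median-of-ratios scaling (0.36, adjusted p = 0.0993) and after quantile normalization (0.16, adjusted p = 0.464). Against 24 h, the 72 h level was higher by 0.88 ± 0.21 SE on the log2 scale (adjusted p = 0.0121), and the call was lost without mouse 3 at 72 h (0.77, adjusted p = 0.0515) and after quantile normalization (0.64, adjusted p = 0.0644).

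The balance of the ligands therefore differed by 72 h. Igf1 made up 15.8 ± 1.77% of the summed Igf1 and Igf2 FPKM in sham, 11.2 ± 2.16% at 6 h, 24.7 ± 6.12% at 24 h and as much as 55.4 ± 5.41% at 72 h (SD, n = 3). The 72 h mice (50.8%, 61.4% and 54.1%) were the only ones in which Igf1 exceeded Igf2. The sum of both was 4.81 to 5.80 FPKM across sham mice and 13.9 to 19.8 FPKM across 72 h mice, with no overlap.

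Igf1r, the signalling receptor, was highest at 6 h and 24 h. Its FPKM in mice 1 to 3 was 7.82, 7.22 and 7.55 in sham, 13.6, 9.98 and 9.07 at 6 h, 8.90, 8.86 and 14.0 at 24 h, and then 8.43, 9.54 and 8.77 at 72 h. Each of these groups lay wholly above sham, but the neighbouring groups overlapped one another. The 2 highest values were those of mouse 1 at 6 h and mouse 3 at 24 h, the libraries with the most neutrophil marker RNA (997 and 965 FPKM). The log2 change was 0.46 ± 0.14 SE at 6 h (adjusted p = 0.0494), and without mouse 1 it was 0.30 (adjusted p = 0.0595). This call was lost in 5 of the 6 fits that left out a mouse. At 24 h it was 0.41 ± 0.17 SE and was not called (adjusted p = 0.0957). At 72 h the called change (0.22 ± 0.07 SE, adjusted p = 0.0265) was smaller than the shift of all genes. Its direction turned to -0.06 after median-of-ratios scaling and to -0.21 (adjusted p = 0.0269) after quantile normalization. The 72 h call was also lost without sham mouse 2 (adjusted p = 0.0877) or 3 (adjusted p = 0.063). It was lost without 72 h mouse 2 (adjusted p = 0.0692) or 3 (adjusted p = 0.0541), and in the fit of all 18 mice (adjusted p = 0.217).

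Among the binding proteins, Igfbp7 rose from 6 h on and had the largest change at 72 h. This secreted protein is abundant in vessel walls. Its FPKM in mice 1 to 3 was 95.3, 98.2 and 123 in sham, 166, 145 and 130 at 6 h, 153, 227 and 231 at 24 h, and then 386, 487 and 404 at 72 h. From 6 h on every mouse lay above every sham mouse, and the 72 h mice lay above all others. The log2 change was 0.48 ± 0.13 SE at 6 h (adjusted p = 0.0296), 0.93 ± 0.18 SE at 24 h (adjusted p = 0.0114) and 2.01 ± 0.12 SE at 72 h (adjusted p = 1.19e-06). The 72 h mean was 4.04-fold that of sham. The step from 24 h to 72 h was called (1.08 ± 0.18 SE, adjusted p = 0.00326), and that from 6 h to 24 h was not (0.45 ± 0.18 SE, adjusted p = 0.123). The 6 h call was lost without mouse 1 at 6 h (adjusted p = 0.066) and in 3 of the 5 other fits that left out a mouse, and the 24 h call without sham mouse 1 (adjusted p = 0.0537) or 2 (adjusted p = 0.0505). The 8 endothelial markers, none at 0, moved in both directions. Pecam1 and Fabp4 were called higher and Kdr, Tek and Emcn lower at 6 h, and at 72 h Vwf was called higher and 5 were called lower. They summed to 1490 to 1561 FPKM in sham, 2097 to 2296 FPKM at 6 h and 1153 to 1283 FPKM at 72 h, but Fabp4 alone, a fatty acid binding protein, averaged 827 FPKM in sham, 1443 FPKM at 6 h and 565 FPKM at 72 h. The part of endothelial cells in the Igfbp7 result was not tested.

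Igfbp4, which is cut by PAPP-A, rose at 72 h. It measured 19.1, 18.0 and 19.9 FPKM in sham mice 1 to 3, 16.6, 16.9 and 15.5 FPKM at 24 h, and 49.8, 39.8 and 52.8 FPKM at 72 h. The 24 h mice all lay below and the 72 h mice all lay above the sham mice. The fall at 24 h was not called (log2 change -0.21 ± 0.08 SE, adjusted p = 0.0883), but was after median-of-ratios scaling or quantile normalization, as was the lower level of Igfbp5. At 72 h the log2 change was 1.27 ± 0.11 SE (adjusted p = 7.47e-06), and against 24 h it was 1.48 ± 0.13 SE (adjusted p = 0.000158).

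Igfbp5, a binding protein of muscle and of matrix-producing cells, fell before it rose. Its FPKM in mice 1 to 3 was 89.0, 96.0 and 86.1 in sham, 55.1, 51.3 and 67.1 at 6 h, 70.0, 72.7 and 41.6 at 24 h, and then 181, 120 and 139 at 72 h. All mice at 6 h and 24 h lay below sham and all mice at 72 h lay above it. The log2 change was -0.64 ± 0.11 SE at 6 h (adjusted p = 0.00671), -0.59 ± 0.21 SE at 24 h (adjusted p = 0.0599, not called) and 0.67 ± 0.14 SE at 72 h (adjusted p = 0.00179). The 6 h call held in all 15 alternative fits that were run for it, whereas the 72 h call was lost after median-of-ratios scaling (0.36, adjusted p = 0.0568). Neither the 6 h mean (0.64-fold that of sham) nor the 72 h mean (1.62-fold) reached the study's threshold of a ratio over 2 in either direction. From 24 h to 72 h the level rose by 1.26 ± 0.24 SE on the log2 scale (adjusted p = 0.00532). Fibroblast markers summed to 191 to 260 FPKM at 6 h, with 4 of 8 called lower than in sham, and to far more at 72 h, as given above. Their part in the Igfbp5 pattern was not tested.

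Igfbp3 and Igfbp6 moved in opposite directions at 24 h. Igfbp3, the main carrier of circulating IGF, measured 33.1, 28.8 and 26.1 FPKM in sham mice 1 to 3, 52.4, 36.3 and 32.3 FPKM at 6 h, 49.3, 58.2 and 102 FPKM at 24 h, and 32.6, 52.1 and 33.1 FPKM at 72 h. The 24 h mice lay wholly above sham, and the 6 h and 72 h mice overlapped it. The log2 change at 24 h was 1.16 ± 0.26 SE (adjusted p = 0.0157), and without mouse 3, the library with 965 FPKM of neutrophil markers, it was 0.86 (adjusted p = 0.00308). At 6 h (0.42 ± 0.18 SE, adjusted p = 0.114) and 72 h (0.38 ± 0.17 SE, adjusted p = 0.0721) it was not called, nor was the lower level at 72 h against 24 h (-0.78 ± 0.29 SE, adjusted p = 0.0663). The 24 h call was lost when sham mouse 1, 2 or 3 was left out, with adjusted p from 0.0504 to 0.0589.

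Igfbp6, a binding protein with a preference for IGF2, had the strongest fall. Its FPKM in mice 1 to 3 was 24.1, 23.1 and 23.1 in sham, 20.6, 21.7 and 19.7 at 10 min, 19.1, 18.96 and 19.7 at 1 h, and then 16.9, 14.7 and 22.7 at 6 h. It then measured 10.6, 9.59 and 7.58 FPKM at 24 h and 35.3, 20.5 and 20.8 FPKM at 72 h. Every mouse from 10 min to 24 h lay below every sham mouse, and the 72 h mice overlapped sham. The log2 change was -0.17 ± 0.06 SE at 10 min (adjusted p = 0.26) and -0.27 ± 0.05 SE at 1 h (adjusted p = 0.0957). At 24 h it was -1.26 ± 0.12 SE (adjusted p = 0.00205), rank 13261 of 13327 genes from the top, and the call held in all 15 alternatives run for it. The level at 24 h was also below that at 6 h (-0.89 ± 0.19 SE, adjusted p = 0.0289, where 12.5% of all genes were called higher and 1.94% lower) and below that at 72 h (1.34 ± 0.22 SE for 72 h against 24 h, adjusted p = 0.00286). The call against 6 h was lost in 5 of the 6 fits that left out a mouse, with a largest adjusted p of 0.092. Mouse 1 was the high one of the 72 h mice, and the change against sham at 72 h was 0.08 ± 0.18 SE (adjusted p = 0.71), turning to -0.22 after median-of-ratios scaling.

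**Figure D3:**
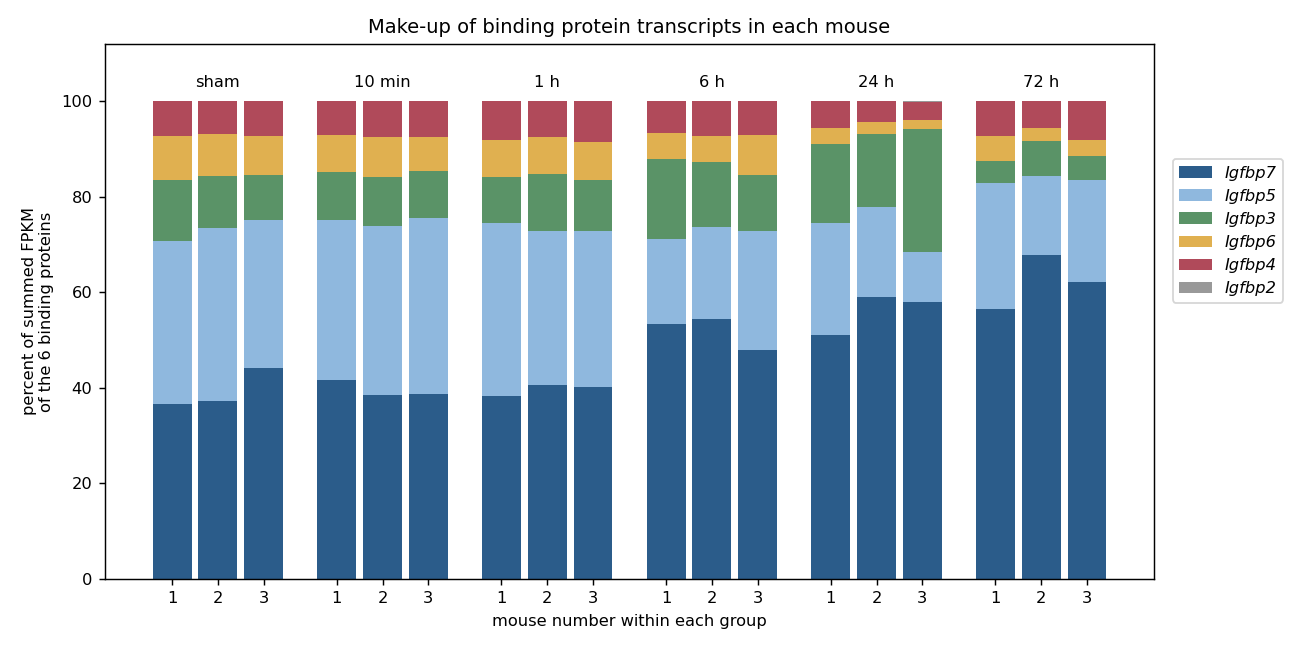
Share of each binding protein in the summed FPKM of the 6 listed (y axis, percent) in each mouse (x axis, numbered within the group). Igfbp7 goes from 36.6 to 44.2% of the sum in sham mice to 56.4 to 67.7% in 72 h mice, Igfbp5 from 31.0 to 36.3% to 16.6 to 26.4%, and Igfbp3 reaches 25.7% in mouse 3 at 24 h.

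Binding protein transcripts summed to more at the late times, and Igfbp7 took a larger share of them. The summed FPKM of the 6 was 267 ± 9.24 in sham, 283 ± 24.6 at 6 h, 361 ± 53.3 at 24 h and as much as 685 ± 34.9 at 72 h (SD, n = 3), and the 24 h and 72 h mice lay above all sham mice. Igfbp7 made up 39.3 ± 4.20% of it in sham, 51.9 ± 3.41% at 6 h, 56.1 ± 4.29% at 24 h and 62.1 ± 5.66% at 72 h. Igfbp5 went from 33.8 ± 2.70% in sham to 20.6 ± 3.68% at 6 h, and Igfbp6 from 8.76 ± 0.468% in sham to 2.64 ± 0.817% at 24 h. Igfbp3 held 10.99 ± 1.67% in sham, 19.1 ± 5.73% at 24 h and 5.70 ± 1.35% at 72 h, so its share at 72 h lay below that of every sham mouse although its own FPKM did not. The ratio of binding protein to ligand FPKM was 49.3 ± 4.98 in sham, 75.8 ± 22.3 at 24 h and 40.7 ± 9.85 at 72 h, and the sham and 72 h mice overlapped. No test was made on these shares.

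The other extracellular and receptor genes of the pathway changed in both directions. Of 12 such genes, 9 passed the filter, and Igfbp1 was listed at 0 in every mouse. None was called at 10 min or 1 h. At 6 h 2 rose and 3 fell, where 11.6% of all genes were called higher and 16.8% lower. At 24 h 1 rose and 3 fell, where 26.2% were called higher and 11.4% lower. At 72 h 2 rose and 5 fell, where 53.1% were called higher and 24.2% lower. Insr, the insulin receptor, fell at 72 h from 30.1, 29.9 and 31.8 FPKM in sham to 15.7, 14.7 and 15.9 FPKM (log2 change -0.94 ± 0.06 SE, adjusted p = 2.21e-06). Igf2r, the receptor that takes up and degrades IGF2, rose from 94.2, 83.7 and 89.4 FPKM to 119, 163 and 138 FPKM (0.64 ± 0.11 SE, adjusted p = 0.000823). The ratio of Insr to Igf1r FPKM accordingly went from 4.07 ± 0.193 in sham to 2.53 ± 0.277 at 6 h and 1.74 ± 0.17 at 72 h, with no overlap between sham and either time. Ghr, the growth hormone receptor, was the most abundant of these genes in sham (318 ± 15.2 FPKM) and fell at 6 h (-0.53 ± 0.10 SE), 24 h (-0.46 ± 0.13 SE) and 72 h (-0.82 ± 0.07 SE). Igfals, which encodes a subunit of the circulating IGF complex, fell at 72 h (-0.97 ± 0.13 SE, adjusted p = 0.00013).

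**Figure D4:**
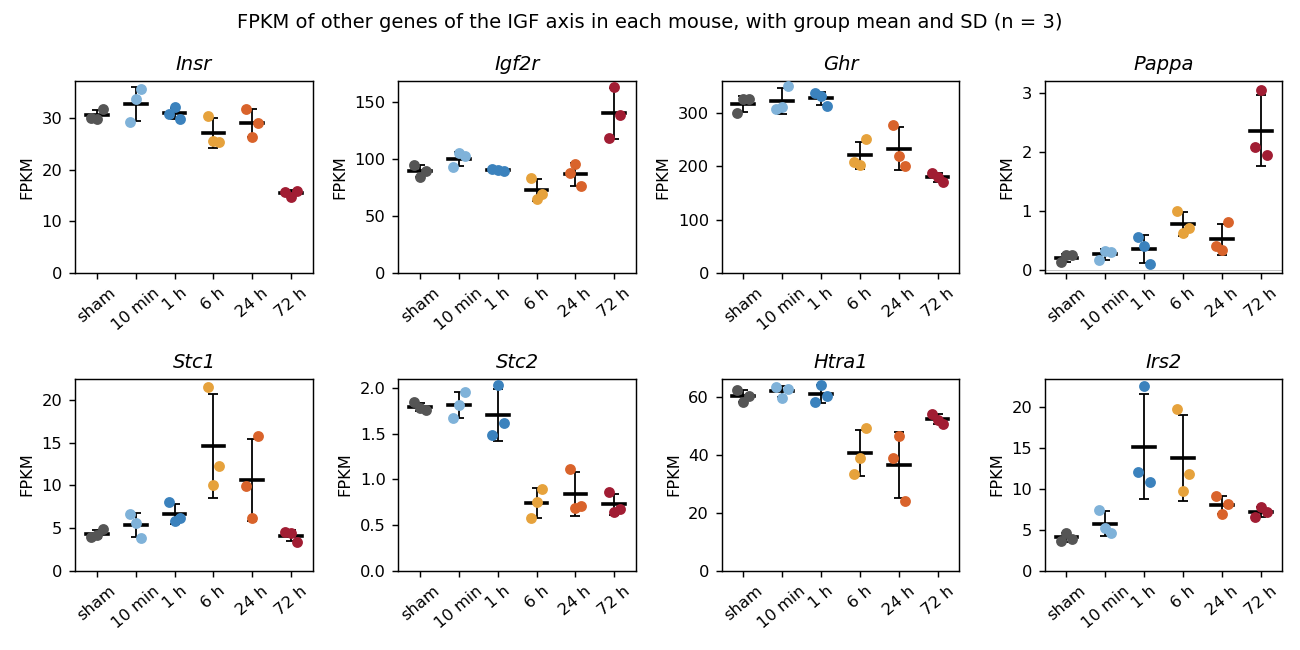
FPKM (y axis, its own scale in each panel) of 8 other genes of the pathway by group (x axis), with 1 point per mouse and bars for the group mean and SD (n = 3). The 72 h mice lie below all others for Insr (14.7 to 15.9 FPKM) and above all others for Pappa (1.95 to 3.05 FPKM), and Irs2 is already raised at 1 h (10.8 to 22.5 FPKM, against 3.62 to 4.60 FPKM in sham).

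The protease that cuts IGFBP4 and its inhibitors moved too. Pappa measured 0.129, 0.243 and 0.250 FPKM in sham, 1.00, 0.622 and 0.702 FPKM at 6 h and 2.07, 3.05 and 1.95 FPKM at 72 h. It rose at 6 h (0.55 ± 0.10 SE, adjusted p = 0.00984) and 72 h (1.46 ± 0.13 SE, adjusted p = 1.19e-05), and it was still low beside Igfbp4. Pappa passed the filter only through mouse 1 at 6 h and the 72 h mice. That it was tested at all thus depended on the groups in which it was called higher. The stanniocalcins, which inhibit PAPP-A, went apart. Stc1 rose at 6 h (1.50 ± 0.25 SE, adjusted p = 0.00611) and 24 h (1.06 ± 0.29 SE, adjusted p = 0.0279) and was 4.10 ± 0.636 FPKM at 72 h beside 4.30 ± 0.485 FPKM in sham. Its 2 highest values were 21.6 FPKM in mouse 1 at 6 h and 15.8 FPKM in mouse 3 at 24 h. These are the libraries with the most neutrophil marker RNA. Stc2 fell at 6 h (-0.69 ± 0.10 SE), 24 h (-0.61 ± 0.12 SE) and 72 h (-0.70 ± 0.09 SE), and was at most 2.03 FPKM in any mouse. Htra1, a protease that also cuts binding proteins, fell at 6 h (-0.58 ± 0.13 SE), 24 h (-0.76 ± 0.22 SE) and 72 h (-0.20 ± 0.06 SE), of which the 72 h call was lost with each mouse rescaled to the same sum (-0.12).

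Inside the cell, the first gene of the pathway to rise was Irs2, an insulin receptor substrate. It went from 3.62, 4.60 and 3.91 FPKM in sham to 12.0, 22.5 and 10.8 FPKM at 1 h (log2 change 1.61 ± 0.24 SE, adjusted p = 0.0332), and was the 1 gene called of 24 signalling genes at that time. It stayed higher at 6 h (1.50 ± 0.23 SE), 24 h (0.84 ± 0.13 SE) and 72 h (0.69 ± 0.10 SE), the last not after quantile normalization (0.22). Grb14, an adaptor that restrains the insulin receptor, fell at 6 h (-0.81 ± 0.12 SE), 24 h (-0.85 ± 0.27 SE) and 72 h (-1.25 ± 0.12 SE). Shc1, an adaptor toward the Ras pathway, rose at 6 h (0.39 ± 0.10 SE), 24 h (0.83 ± 0.17 SE) and 72 h (1.32 ± 0.06 SE). Over the 24 genes, 2 rose and 3 fell at 6 h, 6 rose and 1 fell at 24 h, and 11 rose and 6 fell at 72 h. The shares over all genes, higher and then lower, were 11.6% and 16.8% for 6 h, 26.2% and 11.4% for 24 h, and 53.1% and 24.2% for 72 h, so that the counts at 72 h were near the background. The split depended on scaling: after median-of-ratios scaling it was 3 higher and 2 lower at 6 h, 4 higher and 2 lower at 24 h, and 3 higher and 10 lower at 72 h, where 39.3% of all genes were then called higher and 35.7% lower. Mtor (-0.58 ± 0.08 SE), Tsc2 (-0.58 ± 0.08 SE), Irs1 (-0.37 ± 0.09 SE), Akt2 (-0.31 ± 0.08 SE) and Foxo1 (-0.19 ± 0.07 SE) fell at 72 h along with Grb14, and of these Foxo1 was not called with each mouse rescaled to the same sum (-0.11).

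Of 5 genes of the growth hormone response, none was called at 10 min, 1 h or 24 h. At 24 h 26.2% of all genes were called higher and 11.4% lower. At 6 h 1 rose and 1 fell, where 11.6% of all genes were called higher and 16.8% lower. At 72 h 2 rose and 2 fell, where 53.1% were called higher and 24.2% lower. After median-of-ratios scaling 1 rose and 3 fell at 72 h, where 39.3% were called higher and 35.7% lower. Jak2, the kinase bound to the growth hormone receptor, rose at 6 h (1.13 ± 0.22 SE, adjusted p = 0.0107) and 72 h (0.77 ± 0.08 SE, adjusted p = 4.16e-05). Its 2 highest values were 29.7 FPKM in mouse 1 at 6 h and 23.7 FPKM in mouse 3 at 24 h, the libraries with the most neutrophil marker RNA. Cish, a feedback inhibitor induced by STAT5, fell at 72 h (-1.12 ± 0.11 SE, adjusted p = 1.78e-05). A last list held neighbours of Igf2 and RNA-binding proteins named for it, of which 2 of 6 passed the filter. Both were called higher at 6 h, 24 h and 72 h, where 11.6%, 26.2% and 53.1% of all genes were. H19, the imprinted noncoding RNA beside Igf2, went from 6.14, 4.66 and 5.75 FPKM in sham to 101, 70.8 and 131 FPKM at 72 h (3.93 ± 0.20 SE, adjusted p = 3.95e-07), a far larger change than that of Igf2. Igf2bp2, an RNA-binding protein of Igf2 mRNA, rose at 6 h (1.39 ± 0.21 SE), 24 h (1.06 ± 0.16 SE) and 72 h (1.31 ± 0.11 SE). Among the 6 h mice it was highest in mouse 1 (5.32 FPKM), and among the 24 h mice in mouse 3 (3.34 FPKM), the same 2 libraries.

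**Figure D5:**
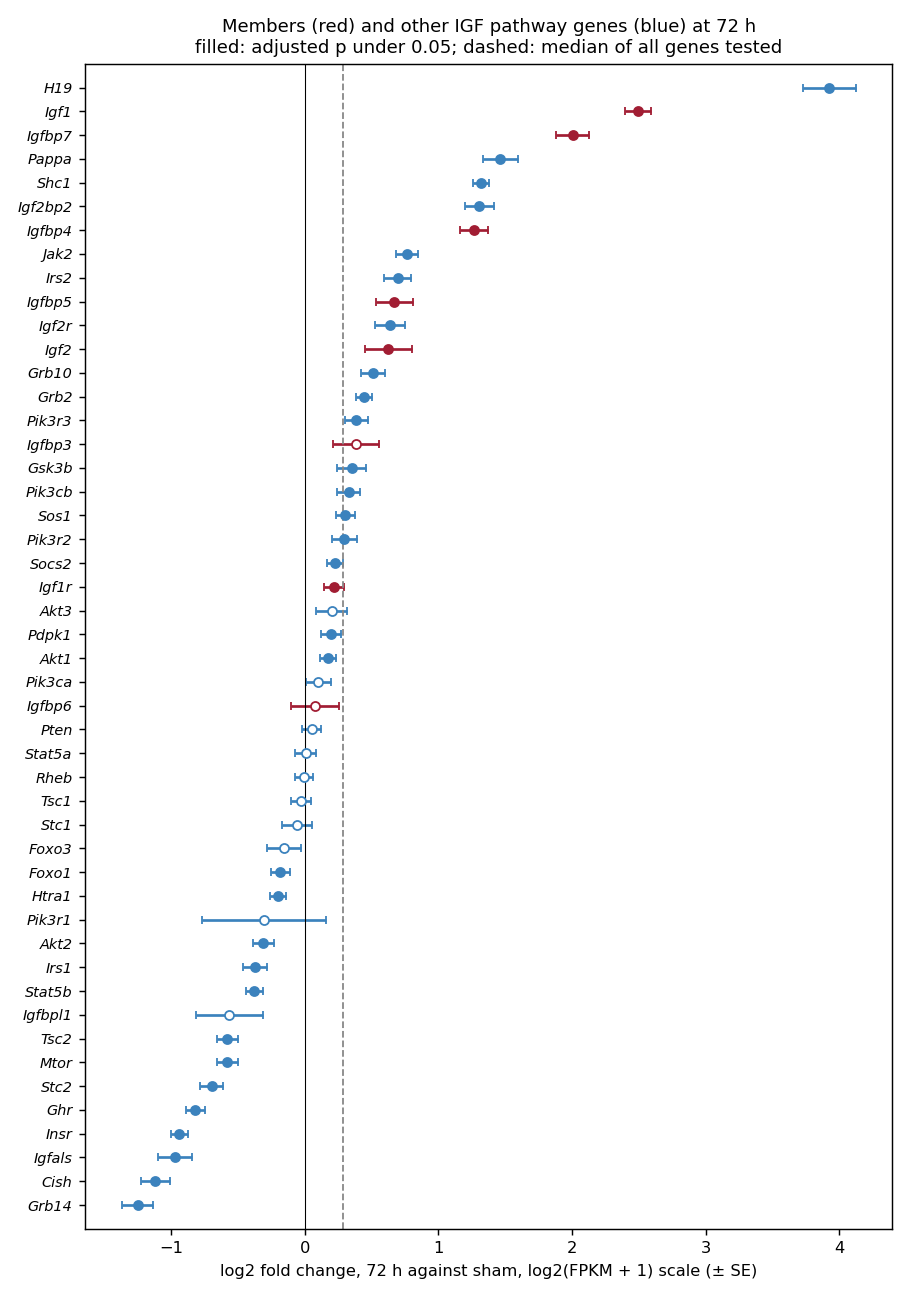
Log2 fold change of 72 h against sham on the log2(FPKM + 1) scale (x axis) for the tested IGF genes described first (red) and the other tested pathway genes (blue), sorted by size, with bars for the SE and filled points for an adjusted p under 0.05. H19 (3.93), Igf1 (2.49) and Igfbp7 (2.01) lead, Grb14 (-1.25) and Cish (-1.12) are lowest, and many signalling genes lie near the median of all genes (dashed, 0.29).

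The genes whose pattern was most like each member were looked up by Pearson's r of log2(FPKM + 1) over the 18 mice, which come from 6 groups and so are not independent points. For Igf1 they were Fcrls (0.996), Arhgap19 (0.995) and C1qc (0.991), of which C1qc encodes a complement chain made by macrophages. C1qc measured 55.7, 61.7 and 66.0 FPKM in sham and 643, 490 and 615 FPKM at 72 h. For Igfbp4 they were Apoe (0.990), Pdgfrl (0.983) and Mfap4 (0.979), and for Igfbp7 Prkcdbp (0.991), Arpc3 (0.990) and Npdc1 (0.987). Igfbp5 was most like Ogn (0.952), a small proteoglycan of the matrix, Plxdc2 (0.951) and Steap3 (0.937). Ogn also dipped and rose, with 22.0 ± 1.24 FPKM in sham, 8.93 ± 3.58 FPKM at 24 h and 38.5 ± 5.80 FPKM at 72 h. For Igfbp3, Ftsj3 (0.951) and Mybbp1a (0.944) were among the most alike. The best matches were weaker for Igf1r (Chd7, 0.923), Igfbp6 (Scn7a, 0.907) and Igf2 (Adamtsl2, 0.885).

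Among themselves the genes fell into no single pattern. Over the 18 mice, r was highest between Igf1 and Igfbp4 (0.943), Igf2 and Igfbp4 (0.851), and Igf1 and Igfbp7 (0.849). It was lowest between Igfbp3 and Igfbp6 (-0.752), and Igf1r went with Igfbp3 (0.771) and against Igfbp6 (-0.542). Igf1 and Igf1r were not related in this way (-0.02). Mice of 1 time point share their group and genes of 1 mouse share a library, so these values are a description.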

How the data were processed

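Per the submitters' processing notes, cutadapt 1.18, HISAT2 2.1.0 on mm10 and StringTie 1.3.4d were run for trimming, mapping and estimating expression. The annotation is not given in the sources used here. The authors deposited 1 table of FPKM, with a row per symbol, 1 column for each of 18 mice and none left unused, and 4 of its column names were misspelt but matched 1 title each. FPKM were used without further scaling. Genes with at least 1 FPKM in at least 1 mouse (13333 of 24419) were tested as log2(FPKM + 1) with limma 3.58.1 in R 4.3.3 (lmFit, eBayes with a variance trend), each comparison on its own 6 mice and without genes of equal value in all 6. P-values were two-sided and adjusted by Benjamini-Hochberg over the genes of each comparison, and errors beside fold changes are SEs. An exact permutation test of 3 against 3 mice cannot go below p = 0.1. The table holds no counts, so the precision of a value is the spread between 3 mice. Relative depth is the most frequent ratio of FPKM below 0.3 between a mouse and the first sham mouse.

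The members, the pathway and marker lists and the tests were chosen with earlier results of these data known. The genes named are the members, the genes of these lists, and for each member the 3 tested genes with the highest correlation, leaving out predicted symbols. Of these correlated genes, 1 is not reported here. Besides the markers given in the report, lists for smooth muscle and pericytes, mesothelium, T cells, B cells and erythroid cells were summed. Alternatives were another pseudocount (0.1), 2 other filters, 3 other scalings, a single fit of all 18 mice, a block on the replicate number, no variance trend, the study's thresholds and leaving out each mouse. Mice were not paired by replicate number, since same-numbered mice did not consistently deviate together. The correlation of their deviations from the group means had no common sign. It ran from -0.327 (mouse 3) to 0.415 (mouse 2), both for 24 h against 6 h. On simulated data for 72 h against sham with 13333 genes, 196 of 200 changed genes and 11 of 13133 unchanged genes were called. In the measured data 77.3% of genes were called in this comparison, and recovery with so large a share changed was not tested. No simulated log2 change was smaller than 1, and both groups were given the spread of the sham mice. Recovery of smaller changes, or with a wider spread, is therefore not known from this simulation. Positions are those of GENCODE M21, promoters are RefSeq sequences, and Python 3.11.15, pandas 2.3.3, numpy 2.4.6 and matplotlib 3.10.9 were used. Protein data were not analysed here.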

Additional observations from a re-analysis of the deposited data

Results flagged for a closer look

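The effects of 7 tests differed between successive times after ligation by limma's test of one time against the other, on the log2(FPKM + 1) scale with adjusted p under 0.05. Igfbp6 was lower by -0.89 at 24 h than at 6 h, with all 3 mice below. At 72 h against 24 h, Igf1 (2.25), Igfbp4 (1.48), Igfbp6 (1.34), Igfbp5 (1.26), Igfbp7 (1.08) and Igf2 (0.88) were higher, each in 3 of 3 mice above all 24 h mice. Over all genes 29.7% were called higher in that comparison.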

How the results depend on the processing

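Of 285 recomputed log2 fold changes of called genes, 246 kept direction and call, 37 kept direction but lost the call, and 2 turned, both for Igf1r at 72 h (-0.0612 after median-of-ratios scaling, -0.21 after quantile normalization). The number of IGF genes called changed as follows, with the share of all genes called under the same setting in brackets. At 6 h, 3 were called (28.3%), but 1 without a filter (18%), 0 with the study's thresholds of an unadjusted p under 0.05 and a ratio over 2 (10.3%), 2 (1 higher, 1 lower) with each mouse rescaled to the same sum (28.3%), and 1 to 4 when a mouse was left out (12.3 to 33.2%). At 24 h, 3 were called (37.6%), but 5 (2 higher, 3 lower) after median-of-ratios scaling (36.4%) or quantile normalization (36.8%), 5 with all 18 mice in one fit (49.7%), and 1 to 4 without a mouse (12.2 to 43.8%). At 72 h, 6 were called (77.3%), but 3 after median-of-ratios scaling (Igf1, Igfbp4 and Igfbp7, 75%), 3 with the study's thresholds (34.9%), 5 (4 higher, 1 lower) after quantile normalization (75.8%), and 5 to 8 without a mouse (72.8 to 76.4%). For 24 h against 6 h, 1 was called (14.4%), but 0 without a filter (6.07%) or with the study's thresholds (8.48%), 5 in one fit of all mice (43.9%), and 0 to 2 without a mouse (0.015 to 15.8%). For 72 h against 24 h, 6 were called (43.2%), 5 to 7 without a mouse (28.8 to 53.4%), with 6 higher and 1 lower after median-of-ratios scaling (44.1%) and 5 higher and 1 lower after quantile normalization (46.1%). At 10 min and 1 h none was called under any of the settings run.

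With the replicate number as a block, 2 were called at 6 h (21.3% of all genes), Igfbp5 and Igfbp3, while Igf1r (adjusted p = 0.0566) and Igfbp7 (adjusted p = 0.0654) lost their calls. Under the block 4 were called at 24 h (31.4%), 6 at 72 h (76.6%), where Igfbp3 gained and Igf1r lost the call (adjusted p = 0.05003), and 6 for 72 h against 24 h (41.3%). For 24 h against 6 h the block left 0 of these genes and 1 gene of the whole table called, so that this count bears on all genes alike. Leaving out 1 mouse moved the Igfbp7 share at 72 h only between 59.3 and 65.0%, and the Igfbp5 share at 24 h between 14.7 and 21.1%. Where a fit left out a mouse, the call rests on 5 mice. Depth limits low values most, and Igfbp2 in every group and Igf1 in every group before 72 h had the lowest mean FPKM of the 9 genes; the cause of the changes above was not tested.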
